A study of Mus musculus with 4 samples.

Results

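Glutathione synthesis and use was followed through 10 genes of the mouse thymic lymphoma line BEKO: Slc7a11, Gclc, Gclm, Gss, Gsr, Gpx1, Gpx4, Gstm1, Gsto1 and Gstp1. They were taken as the rows of the deposited table whose gene name equals 1 of these symbols, and all 10 were found among 25630 rows. The series sequenced RNA of this line grown at low or at high density, in 2 libraries each. Both groups carry the genotype label WT. The labels state no cell numbers, medium or length of culture. They also do not state whether replicate libraries stem from independent cultures. The p-values therefore reflect variation between libraries that may be technical. Levels are TPM, transcript abundances scaled for gene length and to a fixed total per library, and mean ± SD is over 2 libraries.

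Glutathione is a tripeptide of glutamate, cysteine and glycine and the most abundant small thiol of animal cells. Cystine enters the cell through the antiporter xCT, is reduced to cysteine, and is joined to glutamate by glutamate-cysteine ligase and then to glycine by glutathione synthetase. Glutathione peroxidases spend the thiol to reduce peroxides, glutathione transferases couple it to electrophiles, and glutathione reductase restores the oxidised form with NADPH. Proliferating T cells depend on this supply for growth and for protection against lipid peroxidation. Whether BEKO cells do was not tested.

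At high density the RNA of 3 of the 10 genes fell: Gsto1, an omega-class transferase, 2.76-fold, Gstm1, a mu-class transferase, 2.77-fold, and Gsr, the glutathione reductase, 1.84-fold. No member rose (0 of 10 called higher, and 0 higher against 5 lower at an unadjusted p under 0.05, where all tested rows had 15.7% higher and 7.76% lower). The 3 calls did not survive omission of either low density library, a fit that leaves 1 library in a group. With any 1 library left out, the log2 fold change ran from −0.90 to −0.85 for Gsr, −1.96 to −0.996 for Gstm1 and −1.46 to −1.42 for Gsto1. The count of falls was 1 after median centring or quantile normalisation and 0 without the filter on low values. Gpx1, Gstp1 and Gclm had lower values in both high density libraries than in either low density library without passing the test, and Gpx4 had higher ones. Slc7a11, Gclc and Gss overlapped between the densities. A gene was called at an adjusted p under 0.05 in limma, a linear model of log2(TPM + 1) fitted to all 10936 rows whose mean reached 1 TPM, and all 10 genes passed that filter. Of all tested rows, 2.11% were called lower and 4.57% higher at high density. The groups did not overlap in 7 genes, 6 lower and 1 higher, against 20.0% of all rows lower and 34.7% higher without overlap. The median log2 fold change of the 10 genes was −0.56, and that of all tested rows was 0.12, the shift against which each change is to be read. With a library omitted, the median of the 10 genes ran from −0.72 to −0.48, and that of all tested rows from 0.27, with high density library 1 omitted, to −0.023, with library 2 omitted. In bulk RNA, a lower level per cell and fewer cells holding the transcript cannot be told apart.

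**Figure D1:**
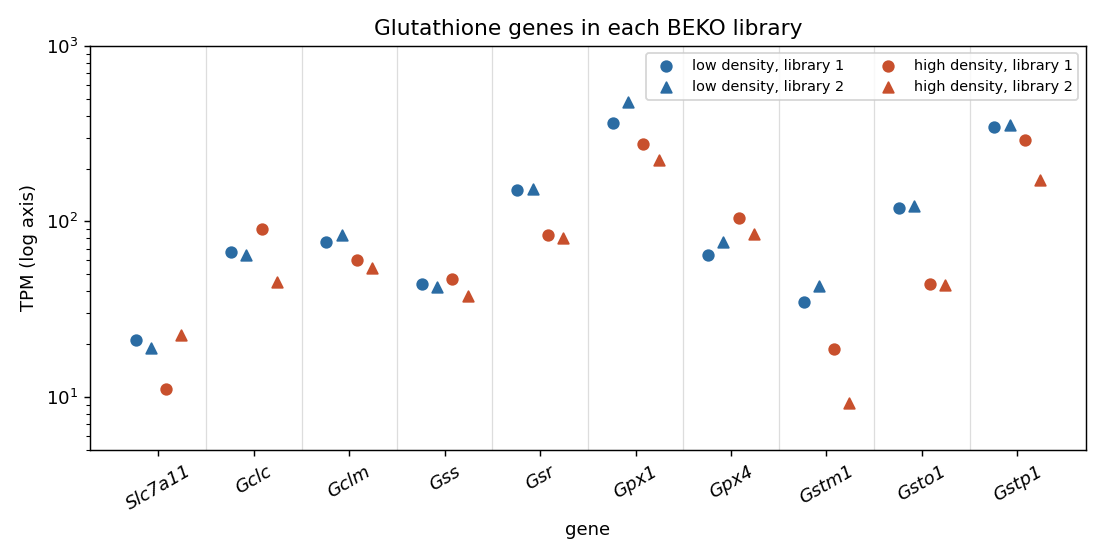
TPM of the 10 glutathione genes (log axis) in each library, low density in blue and high density in red, with circles for library 1 and triangles for library 2. Gsto1, Gstm1 and Gsr sit lower in both high density libraries, at 43.3 to 43.9, 9.17 to 18.8 and 80.8 to 83.8 TPM, while the red symbols of Gclc and Slc7a11 lie on either side of the blue ones.

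All 10 T cell and thymocyte markers examined were tested, and Cd3g, an invariant chain of the T cell receptor complex, stood between 1515 and 1850 TPM in the 4 libraries. Of these markers 1 was called higher and 2 lower at high density, beside 4.57% and 2.11% of all rows. Trdc, the receptor δ constant region, went from 18.1 and 16.0 TPM to 101 and 77.1 TPM, Rag1 from 609 and 480 TPM to 185 and 182 TPM, and Rag2 from 47.7 and 40.6 TPM to 16.0 and 12.9 TPM (limma's adjusted p = 0.000911, 0.00283 and 0.00702). With either low density library omitted Rag2 was not called (limma's adjusted p = 0.254 and 0.148), and without the filter on low values none of the 3 was (0.133, 0.134 and 0.142). The summed level of 6 B cell markers was at most 1.30 TPM. The 8 myeloid markers found summed to 17.1 and 6.62 TPM at low and to 16.1 and 12.1 TPM at high density. Most of this was Itgam, an integrin chain, at 8.27 and 6.62 TPM at low and 16.1 and 12.1 TPM at high density (limma's adjusted p = 0.134), and S100a9, at 7.36 TPM in low density library 1 and listed at 0 elsewhere. Lyz2, Adgre1 and S100a8 were at or near 0 throughout, and the part of these markers in the results was not tested. Col1a1, a fibroblast collagen, was 30.3 TPM in low density library 1 and 0, 0.172 and 0.236 TPM in the other libraries. The 8 stromal and epithelial markers summed to 110 and 52.5 TPM at low and to 48.4 and 38.2 TPM at high density, with Dcn and Epcam at 0 throughout. Pecam1 made up most of each sum, at 62.5 and 51.8 TPM at low and 47.9 and 37.4 TPM at high density. Col1a2, another collagen, was 14.5 TPM in low density library 1 and 0.263, 0.120 and 0.300 TPM in the others. Low density library 2 alone was 2.80-fold the high density mean for Gsto1, 3.08-fold for Gstm1 and 1.86-fold for Gsr. Rows above 0 numbered 15553 in low density library 1 and 13892 in low density library 2, against 13605 and 13758 at high density. Lyz1, Csf1r, Mpo and Col3a1 were also above 0 in low density library 1 alone, at 0.685, 0.203, 0.588 and 1.84 TPM. The part in the results of the transcripts particular to low density library 1 was not tested.

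RefSeq promoter windows of GRCm38.p6, reaching from 250 bases before to 50 bases after the annotated start, were matched by symbol for 8 of the 10 genes. Gclc and Gsr had no entry. The table's build differs from mm9, the build named in the submitters' processing notes, and the coordinates below are those of GRCm38.p6. The 3 motifs searched on both strands were TGACNNNGC, the core of the antioxidant response element that NRF2 binds, TGATGNAA, the element bound by C/EBP and ATF4 dimers, and ACGTG, the core of the hypoxia response element. A match describes letters and is not evidence of a site in use. The 150 bases before the start are shown for the transferases with the largest falls, for the subunit gene with an antioxidant motif and for the cystine transporter, each 5′ to 3′ on the strand of the gene, with motif matches in capitals.
Gsto1, chr19:47854823-47854972, plus strand: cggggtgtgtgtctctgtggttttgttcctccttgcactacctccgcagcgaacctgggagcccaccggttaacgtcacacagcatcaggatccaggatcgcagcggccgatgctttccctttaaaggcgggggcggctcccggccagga
Gstm1, chr3:108017819-108017968, minus strand: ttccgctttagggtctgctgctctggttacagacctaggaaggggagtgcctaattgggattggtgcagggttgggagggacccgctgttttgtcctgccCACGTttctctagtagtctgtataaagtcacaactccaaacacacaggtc
Gclm, chr3:122245407-122245556, plus strand: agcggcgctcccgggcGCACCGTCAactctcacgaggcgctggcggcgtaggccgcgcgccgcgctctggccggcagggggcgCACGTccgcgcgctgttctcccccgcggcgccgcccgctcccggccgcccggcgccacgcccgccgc
Slc7a11, chr3:50443614-50443763, minus strand: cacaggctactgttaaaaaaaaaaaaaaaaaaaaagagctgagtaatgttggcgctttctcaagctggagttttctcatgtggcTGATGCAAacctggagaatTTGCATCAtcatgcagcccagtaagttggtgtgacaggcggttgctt

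The stretch of Gsto1, the most evenly lowered gene, held none of the 3 motifs, nor did its whole window. Gstm1 has 2 annotated starts. The window of the start shown held ACGTG on the opposite strand, from base −50 to −46, and that of the other start held none of the motifs. Gclm held TGACNNNGC from −134 to −126 and ACGTG from −67 to −63, both on the opposite strand. Slc7a11 held TGATGNAA on both strands, from −66 to −59 and from −47 to −40. Gpx1 and Gstp1 each held ACGTG in their windows, from −183 to −179 and from −80 to −76, and the windows of Gss and Gpx4 held none of the motifs. None of the ACGTG matches lay within CACGTG, the E-box. Over 27025 genes with a window, TGACNNNGC was present in 14.0%, TGATGNAA in 4.51% and ACGTG in 21.8%.

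Slc7a11, which encodes the transport subunit xCT of the cystine and glutamate antiporter, was the least abundant member at low density. Its level was 21.2 and 18.9 TPM in the low density libraries, 11.1 TPM in high density library 1 and 22.4 TPM in high density library 2. The high density libraries thus lay on either side of the low density pair. The log2 fold change was −0.32 ± 0.34 (SE, limma's adjusted p = 0.617), and it was 0.16 with high density library 1 omitted and −0.80 with library 2 omitted, where the gene was called (limma's adjusted p = 0.0344). Slc3a2, the heavy chain that carries xCT to the membrane, was 278 and 219 TPM at low and 300 and 530 TPM at high density (limma's adjusted p = 0.172). High density library 2 held the highest value of both antiporter chains.

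The enzymes that build glutathione were not called. Gclc, the catalytic subunit of glutamate-cysteine ligase, was 66.6 and 63.9 TPM at low density. At high density it was 91.0 TPM in library 1 and 45.0 TPM in library 2, above and below both low density values. Its log2 fold change was −0.026 ± 0.32 (SE, limma's adjusted p = 0.974), 0.47 with high density library 2 omitted and −0.53 with library 1 omitted.

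Gclm, the modifier subunit that raises the affinity of the ligase for glutamate, was 76.0 and 83.4 TPM at low and 60.0 and 54.0 TPM at high density. The groups did not overlap, and the log2 fold change of −0.48 ± 0.24 (SE) did not pass the test (limma's adjusted p = 0.26). Gss, the synthetase of the second step, was 44.0 and 42.1 TPM at low and 47.2 and 37.8 TPM at high density. The Gss values at high density enclosed those at low density, with a log2 fold change of −0.028 ± 0.26 (SE, limma's adjusted p = 0.964).

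Gsr, the reductase that regenerates glutathione with NADPH, was 151 and 153 TPM at low density and 83.8 and 80.8 TPM at high density. The libraries of each density lay close together and the groups far apart. Its log2 fold change was −0.88 ± 0.23 (SE, limma's adjusted p = 0.0435). The call did not survive omission of low density library 1 or 2, with the log2 fold change then at −0.89 and −0.86. The call was also lost after median centring (limma's adjusted p = 0.0526), quantile normalisation (0.0539), without the mean-variance trend (0.0862) and without the filter on low values (0.153).

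Gpx1, the abundant selenoenzyme that reduces hydrogen peroxide, was 363 and 477 TPM at low and 276 and 224 TPM at high density. The groups did not overlap, but the low density libraries differed from each other by more than the distance from the lower of them to high density library 1. The log2 fold change was −0.74 ± 0.24 (SE, limma's adjusted p = 0.0891), and Gpx1 was called without high density library 1 (limma's adjusted p = 0.0146). Gpx4, the selenoenzyme that reduces lipid hydroperoxides in membranes and guards against ferroptosis, was 64.7 and 76.0 TPM at low and 104 and 85.2 TPM at high density. It was the only member with a positive log2 fold change, 0.42 ± 0.25 (SE, limma's adjusted p = 0.329).

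Set against each other within a library, the level of Gpx1 was 5.61 and 6.27 times that of Gpx4 at low density and 2.64 and 2.63 times at high density. This ratio does not depend on the scaling of a library, and its values at the 2 densities did not overlap. The ratio of Gclc to Gclm was 0.876 and 0.767 at low density, and 1.52 and 0.833 at high density. High density library 1 stood apart in that ratio and library 2 lay between the low density values. Gsr was 3.42 and 3.63 times the level of Gss at low and 1.77 and 2.14 times at high density. These ratios were chosen after the values were seen and were not tested.

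**Figure D2:**
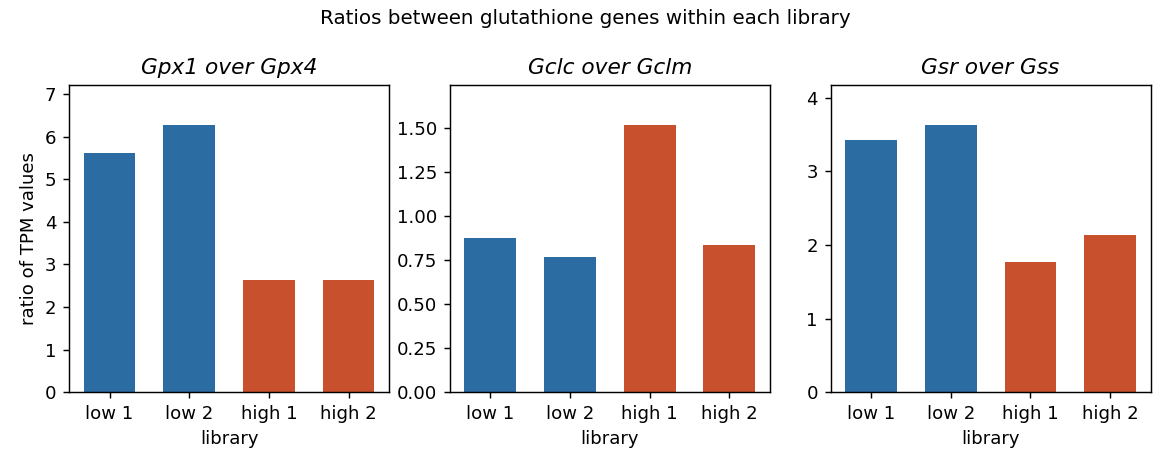
Ratios of TPM between 2 genes within each library (bars start at 0), low density in blue and high density in red. The ratio of Gpx1 to Gpx4 falls between 5.61 and 6.27 in the low density libraries and between 2.63 and 2.64 in the others, while that of Gclc to Gclm is raised in high density library 1 alone, at 1.52.

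Among the transferases, Gsto1 changed most evenly. Its enzyme has thioltransferase and dehydroascorbate reductase activity. It was 119 and 122 TPM at low and 43.9 and 43.3 TPM at high density, and the groups were far apart. The log2 fold change was −1.44 ± 0.24 (SE, limma's adjusted p = 0.00467), and it lay between −1.46 and −1.42 when any library was left out. The call did not survive omission of low density library 1 (limma's adjusted p = 0.0708), without low density library 2 (0.13) and without the filter on low values (0.133).

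Gstm1 was 34.5 and 43.1 TPM at low density and 18.8 and 9.17 TPM at high density. The groups did not overlap, but the high density libraries differed from each other by more than those of Gsto1. The log2 fold change was −1.48 ± 0.34 (SE, limma's adjusted p = 0.0251), and the fall was 4.23-fold when high density library 1 was omitted and 2.06-fold when library 2 was. The call did not survive omission of low density library 1 (limma's adjusted p = 0.162) or 2 (0.447), after median centring (0.092), after quantile normalisation (0.0899) and without the filter on low values (0.222). Of the other mu-class genes, Gstm2 was 2.60 and 4.49 TPM at low and 1.52 and 0.0799 TPM at high density (limma's adjusted p = 0.0971), and Gstm4 was 1.27 and 2.42 TPM at low and 2.81 and 3.70 TPM at high density (limma's adjusted p = 0.386). Gstm3, Gstm5, Gstm6 and Gstm7 lay below the filter. Mu-class genes are close copies, and the sources used here do not give how the counting shared reads between them, so values of the weak copies are uncertain.

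Gstp1, the pi-class transferase that is widespread in tumour cells, was 346 and 356 TPM at low density. It was 291 TPM in high density library 1 and 172 TPM in high density library 2. The groups did not overlap, and the high density libraries differed from each other by more than library 1 did from the low density pair. The log2 fold change was −0.65 ± 0.27 (SE, limma's adjusted p = 0.172), and Gstp1 was called without high density library 1 (log2 fold change −1.03, limma's adjusted p = 0.00453). Its neighbouring copy Gstp2 was 5.76 and 4.33 TPM at low and 3.44 and 2.08 TPM at high density (limma's adjusted p = 0.281), and Gstp3 was between 0.309 and 2.08 TPM in all libraries. The same uncertainty between copies holds for the pi class.

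**Figure D3:**
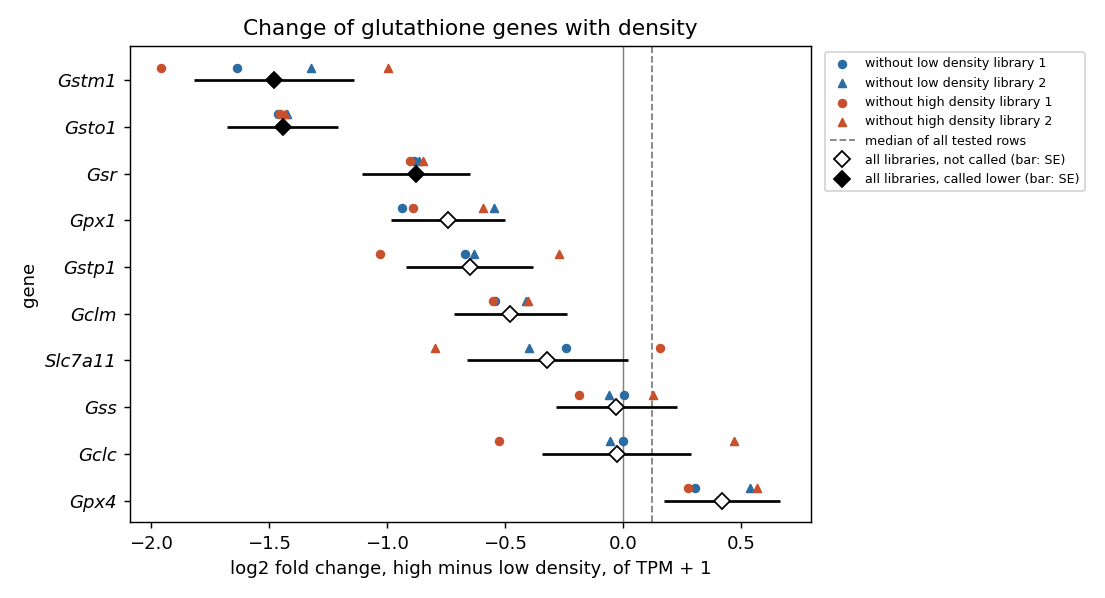
Log2 fold change of TPM + 1, high minus low density, for each gene (diamonds with SE bars, filled where called), and the same value with each library left out in turn (small symbols). Gsto1 stays between −1.46 and −1.42 under all 4 omissions, while the sign of Gclc, Slc7a11 and Gss depends on which high density library is left out. The dashed line is the median of all tested rows, 0.12.

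The order of the levels changed between densities. At low density it ran from Gpx1 at 420 ± 80.7 TPM over Gstp1 at 351 ± 7.07, Gsr at 152 ± 1.60 and Gsto1 at 120 ± 2.38 TPM to Gclm, Gpx4, Gclc, Gss, Gstm1 and, last, Slc7a11 at 20.1 ± 1.62 TPM. Gclm and Gpx4, Gpx4 and Gclc, and Gss and Gstm1 were neighbours whose libraries overlapped. At high density Gpx1 at 250 ± 36.5 and Gstp1 at 231 ± 84.5 TPM overlapped, and Gpx4 at 94.8 ± 13.6 TPM followed in the third place. Gsto1, at 43.6 ± 0.417 TPM, had moved from the fourth to the seventh place, where its libraries overlapped with those of Gss. Gstm1 was last, at 14.0 ± 6.83 TPM, and overlapped with Slc7a11. The 10 genes summed to 1285 and 1435 TPM at low and to 1027 and 773 TPM at high density, and the 2 densities did not overlap. Gpx1 and Gstp1, the 2 most abundant at both densities, weigh most in this sum, and neither was called. The sum was not tested.

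The wider pathway was read from lists of 80 further genes for cysteine supply, glutathione breakdown, glutaredoxins, other peroxidases, other transferases, detoxification and transport. Of these, 77 were found and 41 passed the filter. Of the 41, 1 rose and 0 fell, beside 4.57% and 2.11% of all rows, and the median log2 fold change was −0.017. At an unadjusted p under 0.05 there were 5 higher and 5 lower, beside 15.7% and 7.76% of all rows. The calls depended on which library was omitted, a fit that leaves 1 library in a group, and they numbered 0 without the filter. The riser was Clic4, a chloride intracellular channel protein with the fold of a glutathione transferase, at 56.6 and 34.9 TPM at low and 128 and 144 TPM at high density (log2 fold change 1.59 ± 0.28 SE, limma's adjusted p = 0.00648). Its call did not survive omission of low density library 2 (limma's adjusted p = 0.169) and without the filter on low values (0.158). Groups did not overlap for 11 genes higher and 14 lower, beside 34.7% and 20.0% of all rows, and they overlapped for 16.

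None of the 6 other glutathione peroxidase genes passed the filter, so that Gpx1 and Gpx4 were the only tested peroxidases of this family. Their 6 rows summed to between 0.102 and 1.99 TPM per library. Of 4 tested genes for cystine and cysteine supply, 0 were called. Limma's unadjusted p was under 0.05 for 1 gene higher and 0 lower, beside 15.7% and 7.76% of all rows. Besides Slc3a2, the neutral amino acid transporter gene Slc1a5 was the most abundant, with 245 and 207 TPM at low and 212 and 321 TPM at high density (limma's adjusted p = 0.671). Cbs and Cth, the enzymes that make cysteine from homocysteine, lay below the filter, with Cth at 2.79 TPM in high density library 2 and at most 0.175 TPM in the others.

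Of 7 tested genes for glutathione breakdown, 0 were called. Limma's unadjusted p was under 0.05 for 0 genes higher and 1 lower, beside 15.7% and 7.76% of all rows. The most abundant were Lap3, a leucine aminopeptidase, at 97.6 and 98.7 TPM at low and 49.3 and 70.5 TPM at high density (limma's adjusted p = 0.116), and the dipeptidase gene Cndp2. Cndp2 was 88.6 and 88.7 TPM at low and 59.8 and 88.7 TPM at high density, so that a single library was low. Chac1, which cleaves glutathione in the cytosol, was 3.51 TPM in low density library 1, the library with Col1a1, and listed at 0 in the other 3.

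Of the 4 tested genes for glutaredoxins, the small oxidoreductases that use glutathione, 0 were called. At an unadjusted p under 0.05, 2 were lower and 0 higher, beside 7.76% and 15.7% of all rows. All 4 had negative log2 fold changes, as did 40.3% of all tested rows. Glrx5, which serves iron-sulfur cluster assembly in mitochondria, was 304 and 358 TPM at low and 196 and 199 TPM at high density (limma's adjusted p = 0.0728). Glrx, the cytosolic form, was 89.9 and 101 TPM at low and 66.6 and 44.7 TPM at high density (limma's adjusted p = 0.0978). Both were lower at high density without overlap, as were 20.0% of all rows.

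In the list of glutathione-dependent detoxification 0 of 7 tested genes were called. Limma's unadjusted p was under 0.05 for 1 gene higher and 0 lower, beside 15.7% and 7.76% of all rows. The most abundant was Adh5, the alcohol dehydrogenase that handles the adduct of formaldehyde and glutathione, at 200 and 198 TPM at low and 150 and 176 TPM at high density (limma's adjusted p = 0.475). Esd, which completes that reaction, was 122 and 145 TPM at low and 130 and 121 TPM at high density. In the transport list 0 of 7 tested genes were called. Limma's unadjusted p was under 0.05 for 1 gene higher, Abcc1, and 1 lower, Slc25a10, beside 15.7% and 7.76% of all rows. Slc25a39, which carries glutathione into mitochondria, was 187 and 160 TPM at low and 154 and 104 TPM at high density (limma's adjusted p = 0.325). Slc25a11, another mitochondrial carrier, was 70.9 and 59.6 TPM at low and 60.9 and 72.9 TPM at high density, with overlapping groups.

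NADPH is the electron source of Gsr. Of a list of 10 genes drawn up around its supply, 9 were tested, 1 called higher and 2 lower, beside 4.57% and 2.11% of all rows. Pgd, a dehydrogenase of the pentose phosphate pathway, was 139 and 152 TPM at low and 87.5 and 53.4 TPM at high density (limma's adjusted p = 0.0392). Mthfd1, a cytosolic folate enzyme, was 163 and 144 TPM at low and 57.3 and 71.5 TPM at high density (limma's adjusted p = 0.0116). Me2 was 55.4 and 47.5 TPM at low and 141 and 93.1 TPM at high density (limma's adjusted p = 0.0278). It encodes a mitochondrial malic enzyme that mainly uses NAD, so its rise is not read as a rise of an NADPH source. All 3 calls were lost when either low density library was omitted (limma's adjusted p = 0.198, 0.183 and 0.128 for library 1 and 0.456, 0.139 and 0.416 for library 2), and those of Pgd and Me2 also after median centring (0.1 and 0.128), after quantile normalisation (0.107 and 0.107) and without the trend (0.0826 and 0.0618). Without the filter on low values none of the 3 was called (limma's adjusted p = 0.215, 0.142 and 0.187).

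Several of the 10 genes are textbook targets of NRF2, and its pathway list had 11 tested genes. At an unadjusted p under 0.05, 2 of these were higher and 4 lower, beside 15.7% and 7.76% of all rows. By adjusted p, 1 fell and 0 rose, beside 2.11% and 4.57% of all rows. This was Txnrd1, the cytosolic thioredoxin reductase, at 228 and 253 TPM at low and 91.0 and 68.4 TPM at high density (log2 fold change −1.59 ± 0.24 SE, limma's adjusted p = 0.00345), whose call did not survive omission of low density library 2 (limma's adjusted p = 0.0516) and without the filter on low values (0.134). Nfe2l2, which encodes NRF2, was 40.8 and 38.4 TPM at low and 52.9 and 46.9 TPM at high density (limma's adjusted p = 0.469). Nqo1 and Hmox1, picked after their values were seen, differed in direction. Nqo1, a quinone reductase, was 21.0 and 47.3 TPM at low and 13.1 and 0.106 TPM at high density (limma's adjusted p = 0.055). Hmox1, the haem oxygenase, was 25.9 and 23.6 TPM at low and 145 and 34.5 TPM at high density (limma's adjusted p = 0.0958). High density library 1 held the highest Hmox1 value and library 2 the lowest Nqo1 value.

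Slc7a11 and Chac1 are also known targets of ATF4. In the list of ATF4 and its targets, 3 of 7 tested genes rose and 0 fell, beside 4.57% and 2.11% of all rows. At an unadjusted p under 0.05, 6 were higher and 0 lower, beside 15.7% and 7.76% of all rows. Trib3, a pseudokinase, was 7.98 and 3.31 TPM at low and 23.7 and 40.9 TPM at high density (limma's adjusted p = 0.00515). Ddit3, which encodes CHOP, was 65.6 and 36.3 TPM at low and 129 and 175 TPM at high density (limma's adjusted p = 0.0106), and Ddit4, an inhibitor of mTORC1, was 471 and 375 TPM at low and 1923 and 1450 TPM at high density (limma's adjusted p = 0.00108). The calls of Trib3 and Ddit3 were lost without low density library 2 (limma's adjusted p = 0.0967 and 0.213), those of Ddit3 and Ddit4 after median centring (0.0563 and 0.0522), that of Ddit3 after quantile normalisation (0.0515), and all 3 without the filter on low values (0.183, 0.185 and 0.136). Slc7a11, in contrast to these 3, had overlapping groups.

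Gpx1 and Gpx4 contain selenocysteine, and 0 of 10 tested genes of the machinery that inserts it were called, also 0 at an unadjusted p under 0.05. Their median log2 fold change was 0.054, with 5 positive and 5 negative. The most abundant were Sephs2, which makes the selenium donor, at 122 and 115 TPM at low and 96.3 and 115 TPM at high density, and Eefsec, the elongation factor for selenocysteine, at 94.0 and 81.2 TPM at low and 70.8 and 81.7 TPM at high density (limma's adjusted p = 0.706 and 0.666).

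**Figure D4:**
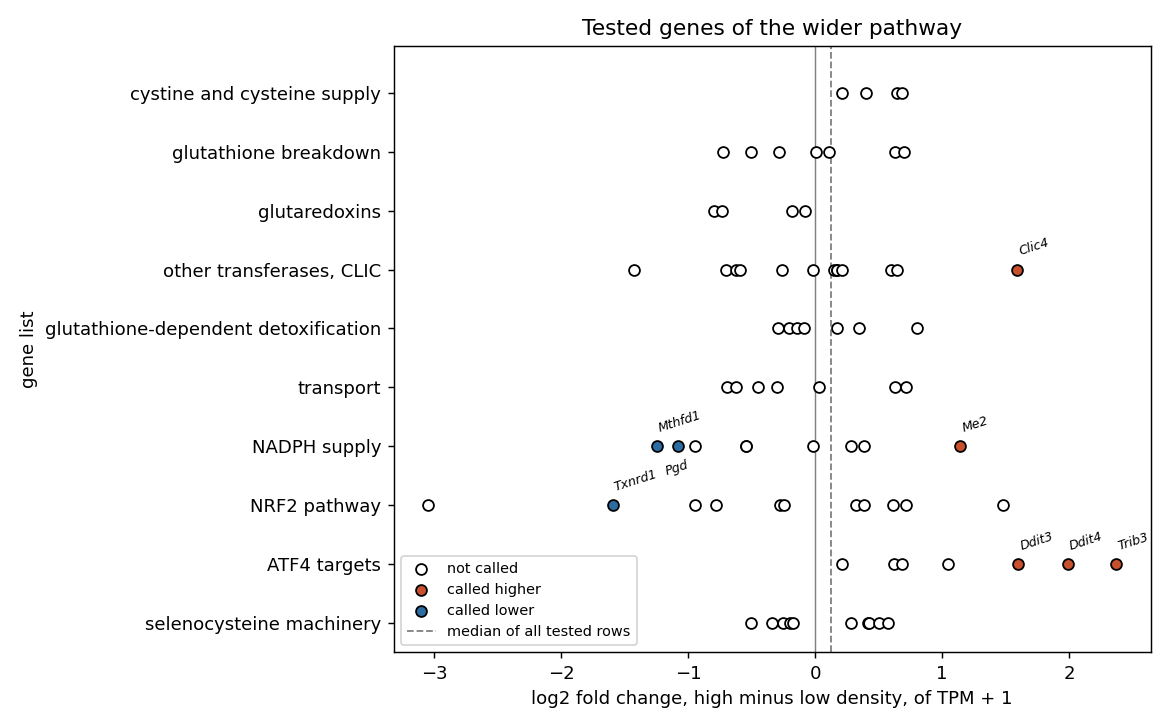
Log2 fold change of TPM + 1, high minus low density, for the tested genes of each list, with called genes filled and named. Clic4 is the called gene among the glutathione lists, Pgd, Mthfd1 and Txnrd1 are called lower, and Me2, Ddit3, Ddit4 and Trib3 higher. The dashed line is the median of all tested rows, 0.12.

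The rows with the profiles nearest to the 3 called genes were sought among 9377 rows whose mean reached 5 TPM, by the root-mean-square difference of centred log2(TPM + 1) over the 4 libraries. Nearest to Gsto1 were the small nucleolar RNA Snord22, the mitochondrial chaperonin gene Hspd1 and Snora64, at differences of 0.0671, 0.0675 and 0.0683. Hspd1 was 694 and 645 TPM at low and 249 and 262 TPM at high density. Nearest to Gstm1 were Snord69, Snora33 and the connexin gene Gja1, at 0.0378, 0.0454 and 0.136. Nearest to Gsr were the signalosome gene Gps1, Gm266 and the RNA-binding protein gene Hnrnpa2b1, at 0.0248, 0.0312 and 0.032. With 4 libraries such nearness describes these profiles alone.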

How the data were processed

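RNA of 4 samples was column-purified, and a sequencing company prepared the strand-specific libraries, per the labels' protocols. The authors deposited 1 table of TPM values, with 25630 rows and 4 columns that each sum to 1000000. The submitters' processing notes name the build mm9 and DESeq2 1.2.10 without a role. No aligner, counter, annotation or gene length is given in the sources used here. TPM keeps no depth, so reads per library are unknown and no counting interval is given. TPM is also relative, so that a rise of abundant RNAs lowers the values of others.

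Columns were tied to samples by the sample descriptions. Rows named by Ensembl identifier (699) were matched to symbols. The test was limma 3.58.1 in R 4.3.3 on log2(TPM + 1), high against low density, two-sided, with trended moderation of the variances and Benjamini-Hochberg adjustment over the 10936 rows whose mean reached 1 TPM. The model had 2 residual degrees of freedom, to which moderation added 9.53. Log2 fold changes are on the log2(TPM + 1) scale and understate changes of weak genes. Other folds are ratios of mean TPM. The fit was also run on simulated data, with independent noise in each row and no shift shared by a library. That run therefore cannot bear on how the calls depend on single libraries.

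The members and lists were chosen with earlier results of these data known. All members were named, then called genes of each list, or its 2 most abundant tested genes where none was called, close copies of members, and the 3 rows nearest to each called member. Alternatives were other pseudocounts, filters, scalings and variance models, leaving out each library, and the replicate number as a block.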

Additional observations from a re-analysis of the deposited data

How the results depend on the processing

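Calls depended on the settings more than fold changes did. The 731 calls over all rows became 0 without the filter on low values (2638 at an unadjusted p under 0.05), 314 after median centring (160 higher and 154 lower, against 500 and 231) and 360 after quantile normalisation (216 higher and 144 lower). Leaving out 1 library gave 233 to 3270 calls. The 3 called members became 0 without the filter (5 at an unadjusted p under 0.05) and 1, Gsto1, after median centring and after quantile normalisation. The calls of these 3 members did not survive omission of either low density library, a fit that leaves 1 library in a group. For the other glutathione genes the count was 0 without the filter (10 at an unadjusted p under 0.05) and 0 to 14 with a library left out.

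The log2 fold change of Gsr was −0.88 without the filter and without the trend, −1.06 after median centring and −0.96 after quantile normalisation. That of Gstm1 was −1.48, −1.66 and −1.65 without the filter, after median centring and after quantile normalisation, and that of Gsto1 was −1.44 without the filter. With 1 library left out, values ran from −0.90 to −0.85 for Gsr, −1.96 to −0.996 for Gstm1, −1.46 to −1.42 for Gsto1, −0.94 to −0.54 for Gpx1, −1.03 to −0.27 for Gstp1, −0.55 to −0.40 for Gclm and 0.28 to 0.57 for Gpx4. Signs changed for Slc7a11 (−0.80 to 0.16), Gclc (−0.53 to 0.47, and 0.0028 without low density library 1) and Gss (−0.18 to 0.13, and 0.0037 without low density library 1). The cause of each lost call was not tested.

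The replicate numbers of the titles are shared by the groups but not said to mark a common culture. Over rows, deviations of same-numbered libraries correlated at r = 0.0416. With the replicate number as a block, 937 rows and 3 members were called, and 2 other glutathione genes in place of 1. Depth is unknown, and levels near or below 1 TPM are the least certain.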
